A study of Homo sapiens with 8 samples.

Results

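The interferon-stimulated genes described here are a fixed list of 42 genes that cells switch on after interferon or viral nucleic acid. Of the probe sets annotated with 1 symbol only, the brightest on average over the 8 arrays stands for its gene. By this rule 41 of the 42 were measured, among 11963 genes in all. STAT2 was not analysed here. Of the 41, 30 rested on 1 probe set and 11 had several to choose from.

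Transcript levels came from 8 Affymetrix arrays, each hybridised with RNA of 1 sample of a human cancer cell line. HT29, an established colorectal cancer line, gave 6 arrays: untreated cells, cells given the anti-CD24 monoclonal antibody, a clone with a vector expressing an shRNA against GFP, a clone with 1 vector expressing a CD24-directed shRNA, and 2 clones with 2 such vectors. Colo357, an established pancreatic cancer line, gave 2 arrays, untreated and antibody-treated. The antibody was SWA11 at a dilution of 1 in 40 for 72 h, and the labels name no vector for untreated cells. Each shRNA sample is 1 clone, so a feature of the clone and of its shRNA cannot be told apart, and no array of cells given a control antibody was analysed here. Nothing in the labels says that the samples are separate cultures. The p-values therefore cover the spread among these samples, which may be technical.

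Interferons of type I and III bind receptors that signal through the kinases JAK1 and TYK2 to a complex that contains STAT2 and IRF9. It binds the interferon-stimulated response element (ISRE) in the promoters of its target genes. The products block viruses at entry (IFITM proteins), translation (IFIT proteins, the kinase EIF2AK2), RNA stability (OAS proteins) or release (BST2), and include the transcription factors that carry the signal. Many of the genes also respond to double-stranded RNA through IRF3 and IRF7 without secreted interferon.

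The ISRE core was searched as 2 copies of TTTC with any 2 bases between them or, on the other strand, 2 copies of GAAA spaced alike, overlaps counted, in RefSeq promoters (GRCh38.p14), from 250 bases before to 50 bases after the start site. Of the 42 genes, 31 matched a promoter in that table, and 19 of these (61.3%) held at least 1 match, against 996 of 27305 promoters (3.65%) in all. The gamma-interferon element, searched as TTCNNNGAA, was in 7 of the 31 (22.6%), against 7.88% of all promoters, and 3 promoters held both. A match is a run of letters and not a shown binding site. The promoters below belong to the genes on which the results turn most, with the ISRE letters in capitals: ISG15 and IFI27, which rose with antibody in both lines, IFIT1 as an example of its family, and BST2 and ISG20, which did not follow the rest in the clones.
ISG15 promoter, chr1:1013247-1013546 (plus strand): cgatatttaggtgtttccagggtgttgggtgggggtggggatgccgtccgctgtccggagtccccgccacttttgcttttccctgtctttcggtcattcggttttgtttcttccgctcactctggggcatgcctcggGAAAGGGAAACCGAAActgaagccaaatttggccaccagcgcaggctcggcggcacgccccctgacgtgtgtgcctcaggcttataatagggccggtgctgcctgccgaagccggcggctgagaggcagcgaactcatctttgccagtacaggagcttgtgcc
IFI27 promoter, chr14:94110486-94110785 (plus strand): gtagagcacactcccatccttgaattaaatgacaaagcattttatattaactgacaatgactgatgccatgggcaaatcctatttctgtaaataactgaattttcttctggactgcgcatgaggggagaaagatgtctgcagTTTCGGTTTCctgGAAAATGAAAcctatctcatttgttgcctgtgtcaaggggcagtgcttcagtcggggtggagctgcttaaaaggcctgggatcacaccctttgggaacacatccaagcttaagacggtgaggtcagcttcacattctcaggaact
IFIT1 promoter, chr10:89392373-89392672 (plus strand): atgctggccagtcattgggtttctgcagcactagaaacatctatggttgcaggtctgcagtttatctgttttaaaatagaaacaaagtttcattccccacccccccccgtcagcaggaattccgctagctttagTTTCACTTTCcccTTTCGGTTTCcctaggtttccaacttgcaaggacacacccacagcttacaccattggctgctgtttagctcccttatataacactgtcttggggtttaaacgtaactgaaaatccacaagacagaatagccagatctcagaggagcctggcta
BST2 promoter, chr19:17405581-17405880 (minus strand): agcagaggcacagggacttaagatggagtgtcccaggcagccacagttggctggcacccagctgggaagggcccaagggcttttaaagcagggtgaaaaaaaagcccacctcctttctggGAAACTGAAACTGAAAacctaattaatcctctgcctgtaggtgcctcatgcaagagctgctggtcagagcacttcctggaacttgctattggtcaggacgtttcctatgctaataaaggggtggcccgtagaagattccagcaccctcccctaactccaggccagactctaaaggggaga
ISG20 promoter, chr15:88638766-88639065 (plus strand): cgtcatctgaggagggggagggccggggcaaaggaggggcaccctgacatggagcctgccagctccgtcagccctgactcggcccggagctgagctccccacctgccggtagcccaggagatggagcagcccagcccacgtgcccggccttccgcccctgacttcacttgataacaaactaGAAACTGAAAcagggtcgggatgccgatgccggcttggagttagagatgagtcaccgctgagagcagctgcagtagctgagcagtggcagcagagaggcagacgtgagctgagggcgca
In ISG15 and BST2, 2 matches overlap in 1 run, while IFI27 and IFIT1 hold 2 separate matches 3 bases apart and ISG20 holds 1.

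Arrays were alike in scale, with a mean of 250.1 after trimming 2% from each end on each array. Median probe set intensity ran from 32.4 to 63.1, highest in the GFP shRNA clone. CD24, the target, read 558, 171.7 and 595.5 in the 3 CD24 shRNA clones, against 6425.1 in untreated HT29 and 7362.5 in the GFP clone. The dap 3′ spike control, RNA added during labelling, read 274.8 to 277.1 on the untreated and GFP arrays and 405.5 to 922.9 on both antibody arrays and all 3 CD24 shRNA clones. It therefore splits the arrays as the antibody and the CD24 shRNA do, and a labelling difference and the treatment cannot be told apart in those comparisons. The first 2-vector clone stood apart in RNA controls: its ACTB probe sets for the 3′ and 5′ ends gave a ratio of 1.77, where the other 7 arrays gave 1.06 to 1.17. Of 7 colorectal markers, untreated HT29 read 1117.1 for KRT20, 4581.5 for LGALS4 and 439.3 for VIL1, while CDX1, CDX2, CDH17 and GPA33 were at 33.9 or less on all 6 HT29 arrays. With antibody HT29 read 4015.5 for KRT20, 5625.5 for LGALS4 and 1408.3 for VIL1. All 4 clones read above untreated HT29 for KRT20 (2761.4 to 4799.8) and below it for LGALS4 (32.5 to 682.2) and VIL1 (25 to 248.5). Of 6 duct markers measured, untreated Colo357 read 5468.1 for KRT7, 7691.6 for KRT19 and 1814.7 for MUC1, above untreated HT29, but 394.4 for SOX9 and 1.5 for CFTR, below the 1362.4 and 167.2 of HT29, and 14.6 for PDX1. With antibody MUC1 read 679.5 in Colo357. The part of these marker differences in the results was not tested. The 5 leukocyte markers summed to 64.7 to 135.3 on any array, with PTPRC at 24.2 or less, and their part in the results was not tested.

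**Figure D1:**
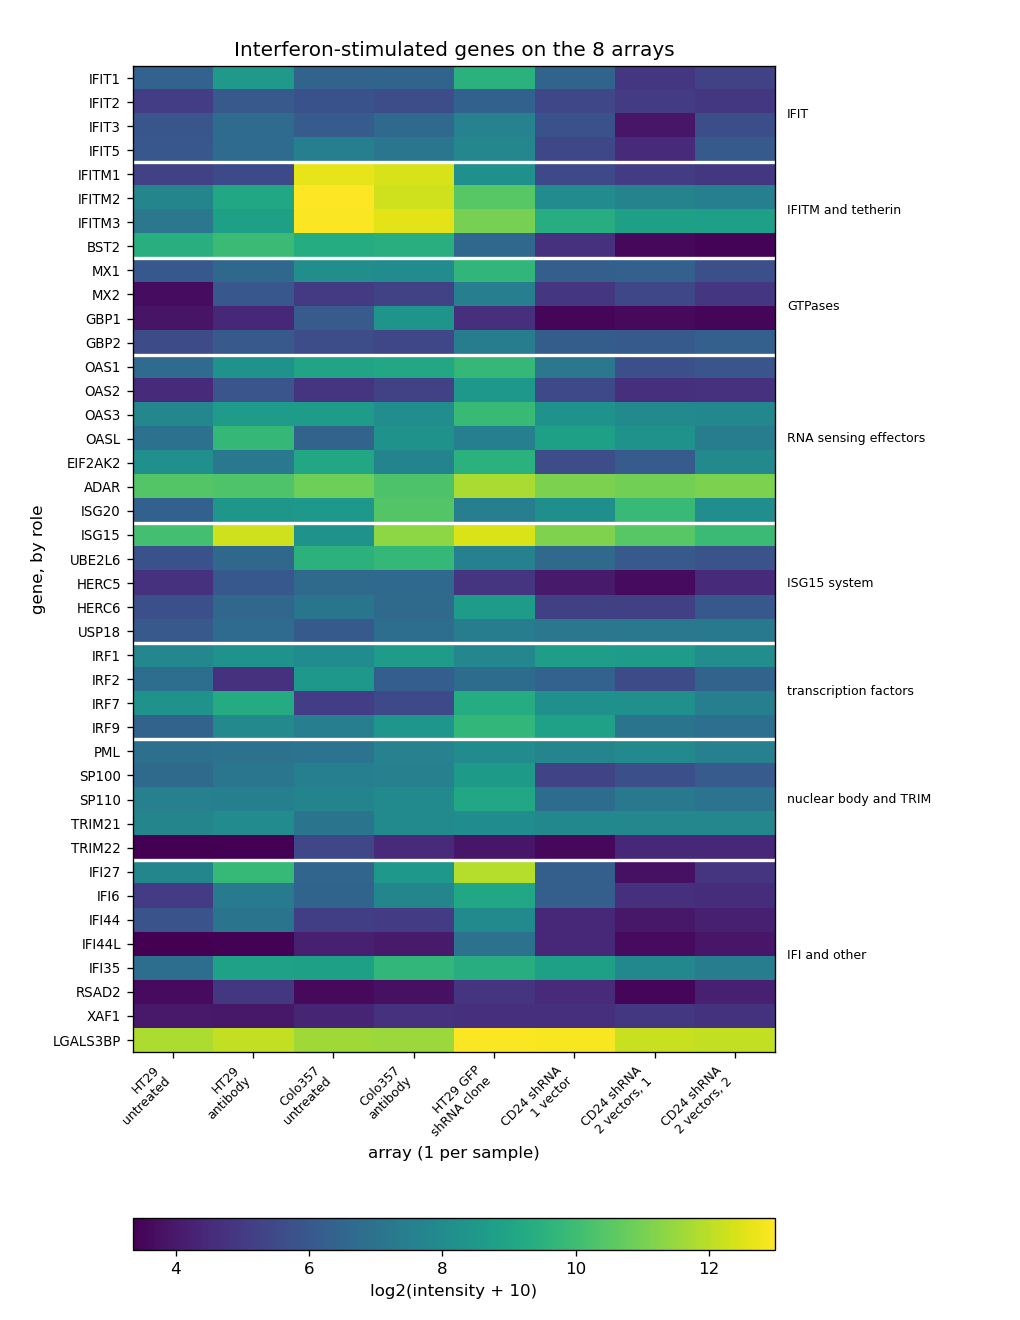
Heat map of log2(intensity + 10) for the 41 measured genes (vertical axis, grouped by role) on the 8 arrays (horizontal axis). Colours are to be read along a row, since probe sets of different genes are not on one scale. The GFP shRNA clone was the brightest of all 8 arrays for 26 of the 41 genes, and the IFITM rows were brightest in Colo357.

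The first question was what anti-CD24 antibody does to these genes in both lines. The ubiquitin-like modifier ISG15, the mitochondrial protein IFI27, the exonuclease ISG20, the OAS-like protein OASL and IFI6, a membrane protein that limits cell death, rose with antibody. IRF2, a transcription factor that competes with IRF1 and can repress interferon-stimulated genes, fell. These 6 were the members past the limma test among 31 tested (fit with line as a block, adjusted p over 6877 genes): 5 of 31 higher, where 1.00% of all genes tested passed in that direction, and 1 of 31 lower, where 2.27% did. Before adjustment 9 members were higher (8.88% of genes) and 2 lower (14% of genes) at a limma p under 0.05. The dap spike read 595.9 and 922.9 on the antibody arrays and 277.1 and 274.8 on the untreated ones.

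ISG15 read 1091.6 untreated and 5045.3 with antibody in HT29, and 295.9 and 2606.9 in Colo357. Among clones it was highest with the GFP shRNA (5533.5) and lower with the CD24 shRNA (2256.8, 1423.7 and 973.1). Its antibody difference was 2.65 ± 0.35 (log2 scale, SE, n = 2 lines; limma adjusted p = 0.0125). In these bulk RNA samples, more expressing cells and more RNA per cell cannot be told apart. Here and below, log2 differences are of log2(intensity + 10), which understates differences of dim genes. IFI27, which holds 2 ISRE matches in the sequence shown, read 208.7 and 884.8 in HT29 and 81.2 and 353.7 in Colo357, a difference of 2.01 ± 0.32 (limma adjusted p = 0.0222). The gap was nearly equal in the lines, 2.03 and 2.00.

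OASL read 115.7 and 862.2 in HT29 and 76.4 and 305.3 in Colo357 (2.33 ± 0.35; limma adjusted p = 0.0183), and its other probe set read 154.6 and 777.9, then 102.6 and 407.4. ISG20, which degrades single-stranded RNA, read 72.3 and 338.2 in HT29 and 349 and 1368.5 in Colo357 (2.01 ± 0.32; limma adjusted p = 0.0222). The other ISG20 probe set had a wider gap in HT29, 12.9 and 312.3, and read 347.9 and 1584.8 in Colo357. Both probe sets of each gene thus lay higher with antibody in each line. IFI6 read 23.1 and 148.4 in HT29 and 77.8 and 210.6 in Colo357 (1.79 ± 0.35; limma adjusted p = 0.0333). IRF2 read 102.8 and 16.2 in HT29 and 346 and 64.9 in Colo357 (-2.18 ± 0.32; limma adjusted p = 0.0177). No other array of HT29 cells read IRF2 as low as the antibody array: the GFP clone read 98.4 and the CD24 shRNA clones 72.6, 36.6 and 74.9.

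The next members in order missed the threshold. IFI35 differed by 1.48 ± 0.37 (limma adjusted p = 0.0604), IRF9, the DNA-binding partner of STAT2, by 1.20 ± 0.33 (0.0721) and EIF2AK2, the RNA-activated kinase that stops translation, by -1.18 ± 0.33 (0.0723). Both EIF2AK2 probe sets were lower with antibody in each line: 286.2 and 137.7, then 177.9 and 144.1 in HT29, and 532.5 and 200.8, then 424.9 and 182.3 in Colo357. EIF2AK2 and IRF2 were the 2 members at 2-fold or more below untreated cells in both lines (2.74% of all genes), though EIF2AK2 did not reach 2-fold in HT29 under quantile normalization, with 50 added, with the mean of its probe sets or without _x_at and _s_at probe sets (-0.86 to -0.29). The fit had 1 residual degree of freedom, so each SE rests mostly on the spread pooled over genes. Under quantile normalization or with no filter 0 members and 0 genes passed, while 12 of 31 and 12 of 41 members had an unadjusted limma p under 0.05, as did 21.0% and 15.1% of all genes. A fit of all 8 arrays passed 2 (ISG15 and OASL), and a filter on mean intensity, added after seeing the data, passed 3 (ISG15, OASL and IRF2).

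**Figure D2:**
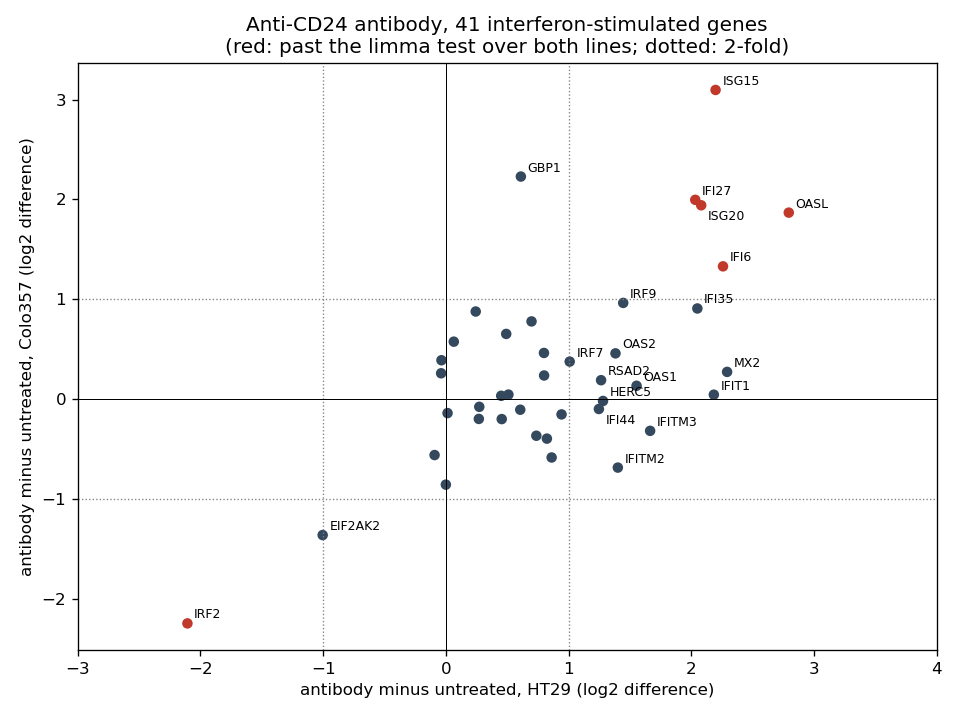
Antibody minus untreated on the log2(intensity + 10) scale in HT29 (horizontal axis) and in Colo357 (vertical axis), 1 point per gene for 41 genes, with names where either difference was 2-fold or more. ISG15, IFI27, ISG20, OASL and IFI6 (red) lay beyond 2-fold in both lines, IRF2 (red) lay at -2.11 and -2.25, and MX2, IFIT1, IFITM2 and IFITM3 lay beyond 2-fold in HT29 with -0.69 to 0.27 in Colo357.

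Within HT29, 1 array against 1, 17 of 41 members were at 2-fold or more above untreated cells, where 6.50% of all genes were, and 2 were at 2-fold or more below (6.69%). The members' median difference was 0.80, against -0.01 over all genes, and 35 of 41 lay above 0 (49.4% of all genes). In both lines 5 were at 2-fold or more above untreated cells (1.46% of all genes) and 22 lay above 0 (31.3%), while 13 lay above 0 in HT29 and below 0 in Colo357 (17.9%). The 17 were spread over the roles. All 4 IFIT genes, which bind viral RNA or block its translation, lay above 0: IFIT1 went from 74.6 to 374.4, IFIT2 from 24.7 to 56.7, IFIT3 from 51.3 to 96.7 and IFIT5 from 53.1 to 95.2. Of these only IFIT1 was at 2-fold on the log2(intensity + 10) scale. The other IFIT5 probe set was not higher with antibody, at 27.5 untreated and 26.7 treated. The GTPase MX2 went from 2.7 to 52.2, so its difference of 2.29 starts from a reading near the bottom of the scale, and MX1 went from 54.9 to 88.8. Elsewhere MX2 read 21.4 and 27.9 in Colo357 and 19, 31.9 and 19.3 in the CD24 shRNA clones.

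OAS1 and OAS2, which make the 2-5A messenger that activates RNase L, went from 96 to 301.3 and from 12.9 to 49.7. OAS3, of the same cluster on chromosome 12, went from 215.5 to 399.9. The endosomal entry inhibitors IFITM2 (202.8 to 552.2) and IFITM3 (133.1 to 443.7) were at 2-fold, and IFITM1 (27.6 to 35.3) was not. Among transcription factors IRF7 (302.3 to 618.7) and IRF9 (76.4 to 225.3) were at 2-fold, and IRF1 (214.7 to 306) was not. HERC5, the ligase that attaches ISG15, went from 16.3 to 53.9, the ISG15 protease USP18 from 55.7 to 96.6, and IFI35 from 104.1 to 462.4. None of the 5 nuclear body and TRIM genes (PML, SP100, SP110, TRIM21, TRIM22) was at 2-fold, with differences of -0.04 to 0.45, the largest for SP100 (92.7 to 130.4). TRIM22, an antiviral ubiquitin ligase, read 0.2 on both arrays, 32.6 and 13.5 in Colo357, 5.2 in the GFP clone, with 1.9, 11.7 and 11.9 for the CD24 shRNA clones. IFI44L read 0.4 and 0.5, and 8.2 and 6.5 in Colo357. Members at 2-fold thus included effectors, genes of the ISG15 system and transcription factors. With 50 in place of 10 added before log2, 11 members were at 2-fold.

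Within Colo357, 6 of 41 members were at 2-fold or more above untreated cells, where 10% of all genes were, and 2 were below (10.5%). The median difference was 0.13, against 0.02 over all genes, and 24 of 41 lay above 0 (51.2% of all genes). The 6 were the 5 genes past the test and GBP1, a GTPase induced mainly by interferon gamma. GBP1 read 58.9 and 313 in Colo357 on the probe set used and 56.3 and 155.3 on its other probe set. The probe set used read 15.9 in the GFP clone, 4.4 and 12 in untreated and treated HT29 and 1.4, 2.2 and 1.2 in the CD24 shRNA clones. The IFIT genes had differences of both signs: IFIT1 read 76 and 78.6, IFIT2 45.1 and 39.5, IFIT3 62.2 and 89.4, and IFIT5 173.3 and 132. OAS1 read 498.7 and 547.6, OAS2 17.9 and 28.3, and OAS3 399.1 and 262.5. Values of HERC5 (92.8 and 91.4) and SP100 (173.4 and 177.5) were the closest of all members.

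Whether the antibody response differed between the lines was tested by an interaction contrast over all 8 arrays, with 1 residual degree of freedom. In limma 0 of 31 members and 0 of 6796 genes passed, where 0.00% passed in either direction, and 0 members and 60 genes had an unadjusted limma p under 0.05 (0.397% of genes higher in Colo357, 0.486% lower). IFIT1 had the smallest p among members, with a response in Colo357 minus that in HT29 of -2.14 ± 1.21 (SE; limma adjusted p = 1.00). The pair of 2-vector clones, as the only group of 2 arrays, supplied the residual degree of freedom. The first clone of this pair stood apart in RNA controls. All 31 tested members had the same SE, since the fit used a spread pooled over all genes. The SE of 1.21 is therefore not an error of IFIT1 itself. The HT29 count of 17 and the Colo357 count of 6 are therefore not shown to differ.

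The GFP shRNA clone was compared with untreated HT29 to see how an HT29 clone with no CD24 shRNA stands. Most of the list was higher in the clone: 32 of 41 members were at 2-fold or more above untreated HT29, where 14.6% of all genes were, and 1 was below (6.08%). The members' median difference was 1.81, against 0.12 over all genes, and quantile normalization gave 1.51 against -0.03. Values of 39 of 41 members lay above 0 (57.7% of all genes). IFI27 (4.16), IFI6 (4.04), OAS2 (3.97) and IFITM3 (3.85) differed most. This is 1 array against 1, so there is no error and no test. The dap spike read 275.2 and 277.1 on these arrays.

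IFI27 read 3886.1 in the GFP clone, above the 884.8 of antibody-treated HT29 and the 67.1, 3.6 and 18.3 of the CD24 shRNA clones. IFI6 read 534.7 there, against 67.2, 15.6 and 14.6 in the CD24 shRNA clones. OAS2 read 348.5 against 35, 15.4 and 16.3, with 110.2 against 13.9, 1.5 and 8.5 on its other probe set. The GFP clone was thus alone at the top for each of these genes. Over all 8 arrays it was the highest for 26 of 41 members (17.5% of all genes). It was the highest of the 6 HT29 arrays for 32 of 41 members (24.5% of all genes), and by 2-fold or more over the next array for 17 (2.13% of all genes). In contrast, antibody-treated HT29 was the highest of the 6 for 4 members (16.2% of all genes).

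By role, all 4 IFIT genes were at 2-fold or more above untreated HT29 in the GFP clone (1.22 to 3.12), though IFIT2 was not under quantile normalization, with IFIT1 at 726.3, IFIT2 at 70.6, IFIT3 at 188.8 and IFIT5 at 213.2. The 3 IFITM genes were as well, with IFITM1 at 286.1, IFITM2 at 1414.8 and IFITM3 at 2049.6. IFITM2 and IFITM3 were measured by _x_at probe sets, which can cross-hybridise within this family of near-identical neighbours (GRCh38.p14, chr11:307816-320860). MX1 read 827.5, MX2 167.6 and GBP2 161.3, and GBP1 (15.9) was not at 2-fold. Of the RNA sensing group, 6 of 7 were at 2-fold, among them OAS1 (866), EIF2AK2 (711) and the RNA-editing enzyme ADAR (3490.9 against 1369). OASL, which heads the antibody list in HT29, read only 174.4.

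In the ISG15 system, 4 of 5 were at 2-fold in the GFP clone: ISG15 itself, its conjugating enzyme UBE2L6 (183 against 45, with 91.8, 56.4 and 46.2 in the CD24 shRNA clones), the HERC5 relative HERC6 (397.2 against 42.1) and USP18 (159.8). HERC5, the neighbour of HERC6 on chromosome 4, read 18.8, and 6.4, 2.4 and 12.7 in the CD24 shRNA clones. Of transcription factors, IRF9 read 838.7, the highest of any array, and IRF7 623.7, close to the 618.7 of antibody-treated HT29. IRF1 (218.2) and IRF2 (98.4) had the smallest differences of all members, 0.02 and -0.06, and IRF1 went from 251.2 to 400.4 with antibody in Colo357. SP100 (379) and SP110 (558), components of nuclear bodies, were at 2-fold, as was PML (245.6), although 2 of the 8 PML probe sets lay the other way. IFI44L read 113.2 in the GFP clone, with 12, 2.4 and 5.2 for the CD24 shRNA clones. Its chromosome 1 neighbour IFI44 read 233.9 in the GFP clone, 25.7 and 23.3 in Colo357 and 122.7 or less in other HT29 cells.

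BST2, or tetherin, which holds budding virus at the cell surface, was the exception. It read 674.5 in untreated HT29, 964.7 with antibody, 636.4 and 656.4 in Colo357, and 88.2 in the GFP clone, a difference of -2.80. The CD24 shRNA clones read 16.5, 1.8 and 0.9. All 4 clones therefore lay at 2-fold or more below untreated HT29, and BST2 was the 1 member of 41 to do so (1.79% of all genes). In limma BST2 was below the filter of the fit on the clones and both controls, so it has no test there. Its promoter, shown above, holds 2 overlapping ISRE matches.

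**Figure D3:**
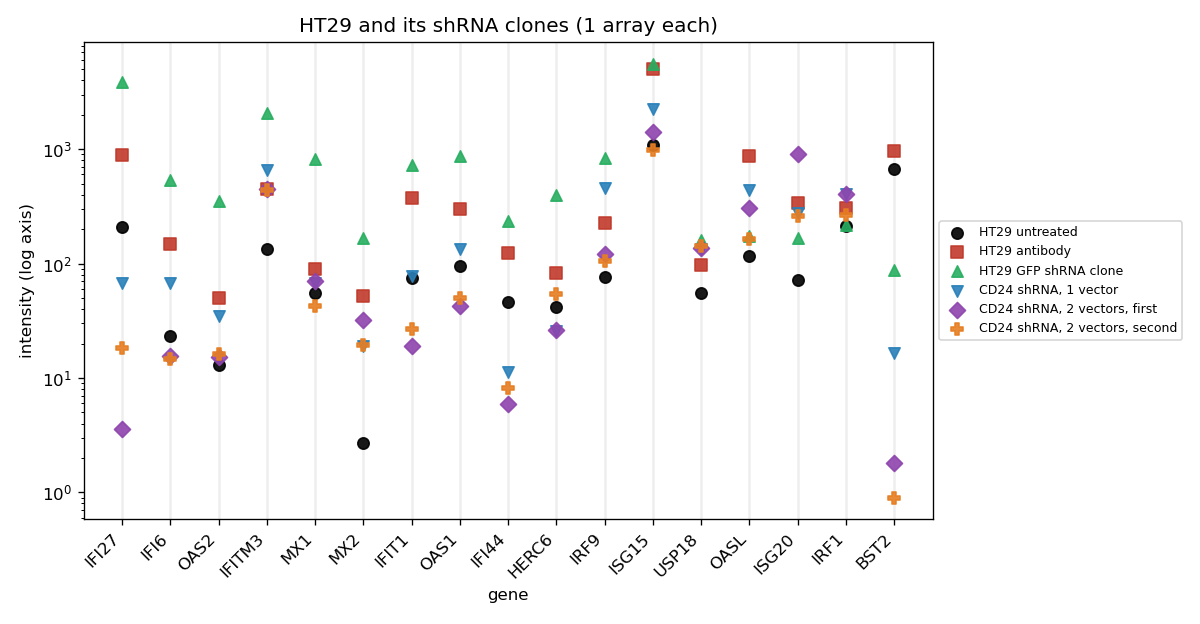
Intensity on a log axis (vertical) of 17 members (horizontal) on the 6 HT29 arrays, 1 marker per array. The GFP shRNA clone (green) was highest for the 13 genes from IFI27 to USP18, the CD24 shRNA clones lay at 67.1 or less for IFI27, and all 4 clones lay below untreated HT29 for BST2.

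The CD24 shRNA clones were then compared with both controls. No member passed limma: 0 of 29 tested, and 0 of 6701 genes (0.00% in each direction), while 9 members had an unadjusted p under 0.05, 8 lower and 1 higher (13.5% and 6.40% of genes). IFI27 differed by -4.90 ± 1.16 (SE, n = 3 clones against 2 controls; limma adjusted p = 0.21), SP100 (30.5, 41.6 and 60.2 in the clones) by -1.92 ± 0.59, EIF2AK2 by -2.30 ± 0.72 and IFIT1 by -2.46 ± 0.88 (limma adjusted p = 0.214 to 0.218). IFIT3, IFIT5, SP110 and OAS1 were the other 4 lower ones, and ISG20 (1.78 ± 0.62, limma adjusted p = 0.216) was the higher one. Of the lower ones IFI27, IFIT1, IFIT3 and IFIT5 passed the filter only through the bright GFP array. Their lower level was thus partly built in, and the count of 8 cannot be read against the 13.5%. Of 5 SP100 probe sets, 2 lay below untreated HT29 in the mean of the CD24 shRNA clones, and all 5 lay below the GFP clone. The dap spike read 405.5 to 916.9 in these clones and 275.2 and 277.1 in the controls. An exact permutation test of 3 arrays against 2 cannot give a p below 0.1. EIF2AK2 passed without the second 2-vector clone (-2.99 ± 0.52, limma adjusted p = 0.033), which read 232 where the other 2 read 38.9 and 59.3. In that fit 1 of 32 members and 593 of 6693 genes passed, so members did not pass more often than genes.

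Set side by side, the 2 controls gave different pictures. Against untreated HT29 the 3 clones had 7 members at 2-fold or more above and 4 below (10.9% and 13.2% of all genes), with a median of 0.14 and 24 members above 0 (51.1%). Against the GFP clone they had 1 above and 28 below (4.40% and 16.2% of all genes), with a median of -1.91 against -0.10 over all genes and 5 members above 0 (44.4%). Quantile normalization gave medians of -1.90 and 0.11. All 3 clones read below the GFP clone for 36 of 41 members (35.8% of all genes), and below untreated HT29 for 11 (30.3% of all genes). They read above untreated HT29 for 19 (32.9%), below both controls for 11 (18.1%) and above both for 3 (15.1%). These comparisons share the clones, and those with untreated HT29 share that array with the antibody and GFP comparisons. Each limma fit below, against 1 control alone, filtered on its own arrays. HERC6, IFI27, IFI6, IFIT1, IFIT5, IFITM1, OAS2 and SP100 lay below the filter in the mean of the clones. They entered the GFP fit only through the bright GFP array, so their lower level was partly built in. The count of lower members in that fit cannot be read against the percentage of genes. The 2 fits tested different sets of members, so their counts cannot be compared. In limma against the GFP clone alone, 1 array assumed to vary like the clones, 0 of 30 members and 0 of 6691 genes passed, but 20 of 30 members had an unadjusted p under 0.05 and a lower level, where 9.77% of genes did, and 0 a higher one (3.45%). Against untreated HT29 alone 0 of 23 members passed, where 1.12% of genes passed higher and 0.182% lower, and 3 members (IFITM3, ISG20 and USP18) had an unadjusted p under 0.05, all higher (10.8% of genes, and 9.11% lower).

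Several members in the CD24 shRNA clones were close to untreated HT29. IFIT2 read 32, 23 and 20.4 against 24.7, IFITM2 248.7, 192.2 and 171.4 against 202.8, and MX1 67.7, 70.1 and 42.4 against 54.9. IFITM1 read 34.1, 23.7 and 20.4 against 27.6. These 4 genes had clones on both sides of the untreated level. OAS3 read 308.2, 242.7 and 222 against 215.5, above it in all 3 clones by 0.04 to 0.50 on the log2 scale. Below it lay IFI27, BST2, and IFI44, which read 11.2, 5.9 and 8.2 against 45.9 on the probe set used but 12.1, 8.8 and 14 against 1.4 on its other one. EIF2AK2 was the fourth at 2-fold below untreated HT29, on the mean of the 3 clones.

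Other members also lay above untreated HT29 in all 3 clones. USP18 read 134.9, 137.7 and 142.8 against 55.7, with an SD of 0.04 on the log2 scale among the clones, and the GFP clone read 159.8. In Colo357 USP18 read 57.1 and 105. IFITM3 read 651.3, 446.8 and 436.4 against 133.1, and IFI35 443.3, 220.6 and 159.9 against 104.1. ISG20 read 277.7, 910.3 and 260.9 against 72.3, which also exceeded the 168.2 of the GFP clone. The first 2-vector clone, which stood apart in RNA controls, gave the highest ISG20 value. Without it no member was at 2-fold above the GFP clone on the probe sets used. The other ISG20 probe set read 178.1, 842.5 and 231.5 in the CD24 shRNA clones, against 35.3 in the GFP clone and 12.9 in untreated HT29. OASL read 442.6, 304.2 and 163.6 against 115.7 on the probe set used. Its other probe set read 376.2, 183.3 and 134 against 154.6, with the second 2-vector clone below untreated HT29. IRF1, an activator of many of these genes, read 407.9, 405 and 263.5 against 214.7. These genes include negative feedback (USP18), an exonuclease and an entry inhibitor.

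Clones with 2 vectors and the clone with 1 were compared without a test, since 1 arm is 1 array. In the mean of the 2-vector clones 7 of 41 members were at 2-fold or more below the 1-vector clone (4.66% of all genes) and 1 was above (5.52%), with a median of -0.39 and 12 members above 0 (50.9%). IFI27 (67.1 against 3.6 and 18.3), IRF9 (459.5 against 122 and 105.8), IFI6 (67.2 against 15.6 and 14.6), IFIT1 (77.5 against 19 and 27), OAS1 (135 against 42.7 and 50) and IFI35 were lower with 2 vectors, as was BST2. On the other side stood EIF2AK2, which read 38.9 with 1 vector and 59.3 and 232 with 2, so the mean rests on the second 2-vector clone. For each of the 7 lower members both 2-vector clones read below the 1-vector clone.

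The last comparison was between the lines, with treatment held equal. Of 31 members, 10 were higher in Colo357 in limma (adjusted p over 6877 genes; 10.9% of all genes passed in that direction) and 3 were lower (8.49%). Both Colo357 arrays read above both uncloned HT29 arrays for 17 of 41 members (24.1% of all genes) and below for 4 (23.0%). The IFITM genes differed most. IFITM1 read 6337.2 and 5516.9 in Colo357, untreated and with antibody, against 27.6 and 35.3 in HT29 (7.17 ± 0.33, SE, n = 2 arrays per line; limma adjusted p = 6.04e-07). IFITM2 read 8169.7 and 5069.1 (4.22 ± 0.46) and IFITM3 7822.5 and 6267.5 (4.78 ± 0.45), so no HT29 array, the GFP clone included, reached Colo357 for any of the 3.

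UBE2L6 read 739.2 and 872 in Colo357, against 45 and 85.8 in HT29 (3.49 ± 0.33). ISG20, MX1 (265.8 and 246), IRF2, OAS1, IFI35 (441.5 and 836.6, with 644.2 in the GFP clone) and HERC5 were the other 6 higher members, at 1.32 to 2.06 (limma adjusted p = 0.00139 to 0.0364). Of these OAS1, IFI35 and HERC5 did not pass under quantile normalization or with no filter, and of the 6 only ISG20 passed in the 8-array fit. IRF7, which amplifies type I interferon, was lower in Colo357, at 24.4 and 34.6 (-3.50 ± 0.34; limma adjusted p = 4.66e-05), and read 302.3 and 618.7 in HT29, with 283.2, 282 and 173 in the CD24 shRNA clones. ISG15 (-1.40 ± 0.35) and IFI27 (-1.28 ± 0.32) were the other 2 lower members (limma adjusted p = 0.0202 for each), and neither passed in the 8-array fit or with no filter. The IFITM genes, UBE2L6, ISG20 and IRF7 passed in the 8-array fit, under quantile normalization and with no filter. Without _x_at and _s_at probe sets UBE2L6 and ISG20 passed, while the IFITM genes and IRF7 had no value.

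**Figure D4:**
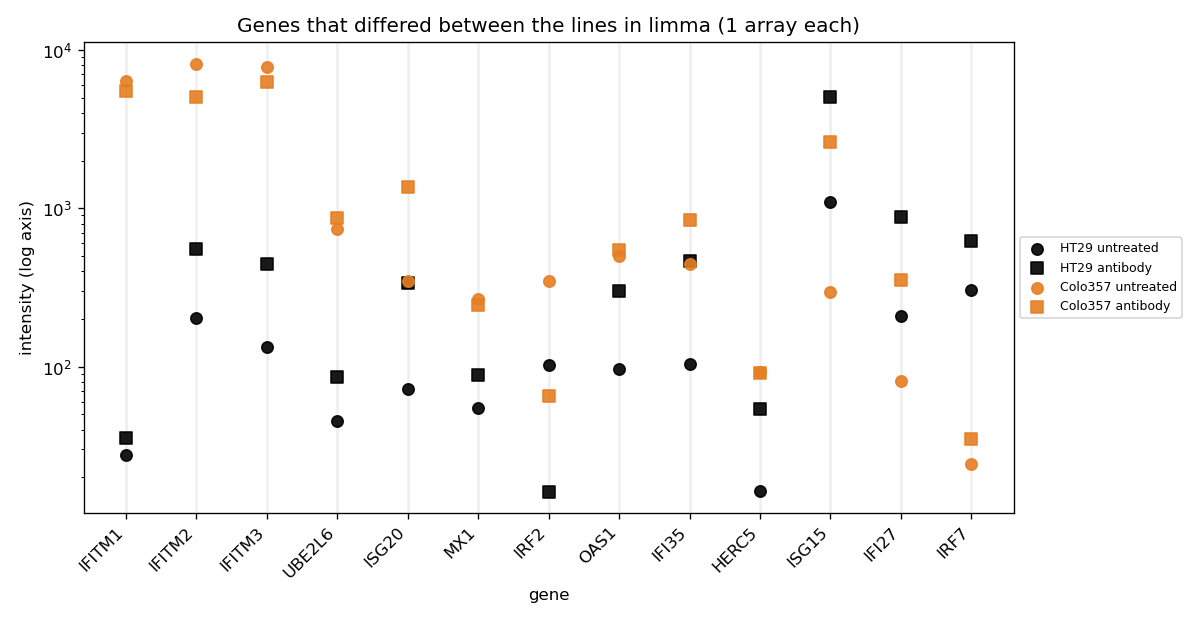
Intensity on a log axis (vertical) of the 13 members past the limma test between the lines (horizontal), on the untreated (circles) and antibody (squares) arrays of HT29 (black) and Colo357 (orange). IFITM1 read 5516.9 and 6337.2 in Colo357 and 27.6 and 35.3 in HT29, and IRF7 read 24.4 and 34.6 in Colo357 and 302.3 and 618.7 in HT29.

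The remaining members are given by range. TRIM21 ran from 123.5 to 254.9 over the 8 arrays, LGALS3BP, a secreted glycoprotein, from 2987.8 to 7918, and GBP2 from 32.7 to 161.3. XAF1, a pro-apoptotic protein, read 6.3 and 5.9 in HT29 without and with antibody, 10.4 and 16.7 in Colo357, 15.3 in the GFP clone, with 15.7, 20.2 and 17.4 for the CD24 shRNA clones. RSAD2, or viperin, read 19.8 or less and TRIM22 32.6 or less, so all 3 stayed under the array-wide median of 45. No detection calls were used, so these are low readings and not calls of absence.

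The upstream pathway was read from 44 further genes, of which 37 had a single-symbol probe set. None of the 15 tested passed limma with antibody, and 1 had an unadjusted p under 0.05, IL10RB, which was higher (8.88% of all genes). None of 13 passed in the CD24 shRNA clones, where TYK2 was higher (6.40% of all genes) and IFNGR1, PTPN11 and TBK1 were lower (13.5%) at an unadjusted p under 0.05. The 14 interferon genes measured, IFNB1 and IFNG among them, read 42.6 or less on every array. The cytosolic RNA sensors RIGI and IFIH1 read 135.7 and 214.9 in the GFP clone. RIGI read 11 in untreated HT29, 24.1 with antibody and 1.7, 7.9 and 20.4 in the CD24 shRNA clones, and IFIH1 read 31.2, 53.9 and 13.9, 12.9 and 23.5. Both sensors thus had their highest HT29 value in the GFP clone, as most members did. They were the 2 of 9 nucleic acid sensing genes measured that were at 2-fold or more above untreated HT29 there (14.6% of all genes). IRF3 was the 1 at 2-fold or more below (6.08% of all genes), at 579.7 against 1226.9. Whether the sensors rose before or after the members was not tested. JAK1 read 359.5 in untreated HT29, 991.1 in the GFP clone, with 568.3, 588.5 and 1022.4 for the CD24 shRNA clones. The gamma receptor chain IFNGR1 (441.4, 574.2, and 96.6, 116.7 and 259.2) and the kinase TBK1 (220.1, 183.5, and 21.8, 42 and 92.8) were lowest in the CD24 shRNA clones, at -1.74 ± 0.48 and -1.93 ± 0.52 against both controls (limma adjusted p = 0.21 for each).

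Among members with a RefSeq promoter, the 19 with an ISRE match had a median difference of 2.02 between the GFP clone and untreated HT29, and the 11 measured without one had 1.81. With antibody in HT29 the medians were 0.80 and 0.80, and in Colo357 -0.02 and 0.24. Ranges in the GFP comparison overlapped, at -2.80 to 4.16 with a match and 0.02 to 3.30 without.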

How the data were processed

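The authors deposited 1 linear intensity per probe set and array, made with MAS5 per the submitters' processing notes (version not given in the sources used here). The 2% trimmed mean is 250.1 on each array. The table holds 22277 probe sets, 62 of them controls. Platform annotation gave 1 symbol to 19064, updated through the Entrez ID in RefSeq (GRCh38.p14).

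Intensities were used as deposited and converted to log2(intensity + 10). A gene entered a fit where its mean log2 value over the fit's arrays exceeded that of an intensity of 45, the median of all non-control values; counts at 2-fold used all 11963 genes without a filter. Fits used limma 3.58.1 (lmFit, eBayes; R 4.3.3), two-sided, with Benjamini-Hochberg adjusted p under 0.05 over all genes tested. A group of 1 array in such a fit is assumed to vary like the others. Precision is limited by how few arrays there are. Simulated data held 50 genes per fold size. Their noise was independent between arrays, took its spread from the fit and held no labelling difference, so recovery in the real data may be lower. On these the antibody fit (6877 genes) recovered 17 at 2-fold and 50 at 4-fold. The clone fit (6701 genes) recovered 2 at 2-fold and 32 at 4-fold. Of genes simulated with no change, 19 of 6677 passed in the antibody fit and 6 of 6501 in the clone fit, which are false calls.

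The members and lists were chosen with earlier results of these data known. Values on all arrays are given for members past a test and for those with the 4 largest and 2 smallest differences in each of 5 comparisons counted by fold (antibody in each line, the GFP clone against untreated HT29, and the CD24 shRNA clones against each control), with further members given by role. Alternatives were quantile normalization, an added 50, the mean of probe sets, no _x_at or _s_at probe sets, other filters, an 8-array fit and leaving out each array.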

Additional observations from a re-analysis of the deposited data

Results flagged for a closer look

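Probe sets that the annotation gives to a member together with another gene were not used above. Of these, 2 carried signal at 2-fold or more over untreated HT29 on several HT29 arrays. The probe set shared by IFITM1 and IFITM2 read 286.9 in the GFP shRNA clone and 21.5 in antibody-treated HT29, against 3 in untreated HT29, 29.1, 29.3 and 24.6 in the CD24 shRNA clones, and 5397.6 and 3861.6 in Colo357. The probe set shared by RNF31 and IRF9 read 151.1 in the GFP clone against 47.4 in untreated HT29, with 57 in antibody-treated HT29, 161.3, 129.1 and 74 in the CD24 shRNA clones, and 94.6 and 112.8 in Colo357.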

How the results depend on the processing

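With antibody over both lines, the 6 members and 225 genes past the test became 0 and 0 under quantile normalization and 0 and 0 without the filter, 3 and 25 with a filter on mean intensity, and 2 and 30 in the 8-array fit. The gene count was 78 with the mean of probe sets and 28 without _x_at and _s_at probe sets. IRF2, ISG15, OASL, IFI27, ISG20 and IFI6 kept their direction in each of these where they were measured, and ISG15 had no value without _s_at probe sets. The cause was not tested. Between the lines, 13 members and 1332 genes became 7 and 703 without _x_at and _s_at probe sets, where fewer genes were tested, and 6 and 523 in the 8-array fit. Leaving out 1 array at a time, the CD24 shRNA comparison gave 0 to 1 members and 0 to 593 genes, with 86 genes without the GFP clone, 2 without the 1-vector clone and 593 without the second 2-vector clone. The interaction gave 3 genes under quantile normalization, none of them a member. With antibody in HT29, 17 higher members became 11 with 50 added and 11 without _x_at and _s_at probe sets, where 31 were measured, and 2 lower members became 1 under every alternative: IRF2, or EIF2AK2 with the filter, which IRF2 did not pass. For the CD24 shRNA clones against untreated HT29, 7 higher members became 3 with 50 added, and 4 lower members became 1 with the filter and 4 to 7 when a clone was left out. Against the GFP clone, 1 higher member became 2 under quantile normalization and 0 to 2 when a clone was left out. Counts in Colo357 with antibody, and in the GFP clone against untreated HT29 (22 to 32 higher), stayed within 1.5 times. The antibody fit, with line as its block, pairs treated with untreated cells; the labels carry no replicate numbers, so no other pairing was fitted.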
